A study of Mus musculus with 2 samples.

Results

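Genes that mouse embryos transcribe at the 2-cell stage, and known regulators of these genes, were examined on arrays of WT and G9a-KO embryonic stem cells (ESCs). The set has 9 genes chosen by name, namely the 2-cell genes *Tcstv1*, *Tcstv3*, *Tmem132c* and *Zfp352*, the activators *Dppa2* and *Dppa4*, and the repressors *Chaf1a*, *Chaf1b* and *Kdm1a*. Of these, 8 were measured, by 13 probe sets, among the 18194 genes that had a probe set with 1 gene symbol, and *Chaf1a* was not analysed here. The groups hold 1 Affymetrix array each, of WT TT2 ESCs, which come from an F1 embryo of the cross C57BL/6 by CBA, and of G9a-KO ESCs. By the labels, the G9a-KO cells are TT2-derived, carry a mutant *G9a* allele, and have lost exons 26 and 27 from the floxed allele. These exons encode the core of the catalytic SET domain. The labels give both samples one treatment text, with 800 nM 4-hydroxytamoxifen for 48 h and a further 48 h without it. They do not say separately whether the WT cells received the drug. For both samples they give 10% serum replacement and 1% fetal calf serum. The methods of the study instead give medium with serum and leukemia inhibitory factor for all ESCs. They list the G9a-KO cells as *G9a*-/- and name 4-hydroxytamoxifen only for the deletion of *Ring1b*. These accounts of genotype, drug and medium were not reconciled here. The G9a-KO cells are a single line compared with TT2 and not with the same line before Cre, and the methods of the study place them on mouse embryonic fibroblasts. Genotype, line and culture can therefore not be told apart.

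A small fraction of ESCs in culture passes through a state in which transcripts of the 2-cell embryo and of the endogenous retrovirus MERVL appear. The DPPA2 and DPPA4 proteins, which bind DNA as a pair through SAP domains, help to switch these genes on by way of the transcription factor DUX. The histone chaperone CAF-1, whose large subunits are encoded by *Chaf1a* and *Chaf1b* and which places histones on newly copied DNA, and the histone demethylase LSD1, encoded by *Kdm1a*, hold the genes down, and so does G9A itself. In a bulk array, a larger share of cells in this state and more RNA per cell cannot be told apart.

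Levels are given as log2 values above or below the 75th percentile of each array, and every difference is the G9a-KO level less the WT level. Since each group is 1 array, no difference could be set against a spread between replicates, and no test was made. The 2-cell members were chosen with their differences known, so their values are a description. Differences were counted past 1.3-fold, the threshold of the study for these arrays, and past a stricter 2-fold. Of all genes, 17.4% were over 1.3-fold higher and 17.2% over 1.3-fold lower, and 4.61% were over 2-fold higher and 3.76% over 2-fold lower. With the most different probe set of each gene in place of the brightest, these shares were 23.3%, 21%, 6.17% and 5.19%.

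The series was checked in brief. *Ehmt2*, which encodes G9A, lay at 2.05 in WT and 0.51 in G9a-KO by its brighter probe set (2.90-fold lower) and at -2.27 and -2.07 by the other, and whether either lies in the deleted exons was not determined. The 9 probe sets of the hybridization spike-ins differed by -0.15 to 0.21 (SD 0.10). All 13 pluripotency markers lay above the median of all probe sets (-2.24 in WT and -2.13 in G9a-KO), with levels from 1.17 to 5.98 in WT and from 1.60 to 6.59 in G9a-KO, so the markers of the labelled cell type were present on both arrays.

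Promoter sequences, running from 250 bases before to 50 after the start site, were taken from RefSeq (GRCm38.p6) and were found for 4 of the 8 measured members. Those of the 2-cell genes *Zfp352* and *Tmem132c* are shown because both genes were higher in G9a-KO while their promoters differ in CG content, and that of *Chaf1b* is shown as a regulator within 1.3-fold. Capitals mark TAATCC in *Zfp352*, CG dinucleotides in *Tmem132c* and the E2F core TCCCGC in *Chaf1b*, the motifs on either strand.
Zfp352, chr4:90218570-90218869, plus strand: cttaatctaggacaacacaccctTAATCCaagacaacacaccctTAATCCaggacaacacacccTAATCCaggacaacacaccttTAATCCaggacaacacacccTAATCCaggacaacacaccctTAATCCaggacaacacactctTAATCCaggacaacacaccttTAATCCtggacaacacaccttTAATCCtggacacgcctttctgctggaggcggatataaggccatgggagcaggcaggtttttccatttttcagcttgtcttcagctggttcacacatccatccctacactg
Tmem132c, chr5:127241576-127241875, plus strand: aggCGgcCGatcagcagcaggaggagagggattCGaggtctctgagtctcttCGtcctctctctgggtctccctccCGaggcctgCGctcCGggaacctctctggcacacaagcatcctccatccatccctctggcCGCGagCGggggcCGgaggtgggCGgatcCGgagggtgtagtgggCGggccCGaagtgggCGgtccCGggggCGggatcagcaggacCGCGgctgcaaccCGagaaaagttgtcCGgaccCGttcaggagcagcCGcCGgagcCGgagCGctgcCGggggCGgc
Chaf1b, chr16:93883651-93883950, plus strand: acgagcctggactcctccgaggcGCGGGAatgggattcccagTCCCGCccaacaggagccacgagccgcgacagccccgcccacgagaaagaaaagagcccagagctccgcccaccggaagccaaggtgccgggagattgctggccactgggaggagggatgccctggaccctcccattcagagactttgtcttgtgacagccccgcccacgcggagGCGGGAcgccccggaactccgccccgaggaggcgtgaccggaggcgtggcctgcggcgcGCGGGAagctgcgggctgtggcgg

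In G9a-KO, all 4 2-cell members exceeded WT by over 1.3-fold (17.4% of all genes did), and 3 of them were over 2-fold higher (4.61% were). Their median difference was 2.39 against 0.036 for all genes. These counts follow from the choice of the members, which was made with their differences known. *Tcstv1* and *Tcstv3*, which encode small related proteins of the 2-cell-stage variable group, had the largest differences of the 4. *Tcstv1* lay at -0.99 in WT and at 1.63 in G9a-KO, a difference of 2.62 (6.14-fold). It thus lay below the 75th percentile on the WT array and above it on the G9a-KO array. *Tcstv3* lay at -3.59 in WT and at -0.51 in G9a-KO, a difference of 3.09 (8.49-fold). The WT value of *Tcstv3* was under the median of all probe sets, where signal and background are hard to separate, so its fold is not exact. Each of these genes has 1 probe set, and related copies could share signal between them.

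*Tmem132c*, a gene of a family of membrane proteins, lay at -2.55 in WT and at -0.39 in G9a-KO by its brighter probe set, a difference of 2.16 (4.47-fold). Its WT value was also under the median. By its other probe set it lay at -4.08 in WT and -3.86 in G9a-KO, a difference of 0.22 (1.16-fold), so the call of *Tmem132c* rests on 1 of its 2 probe sets, the other being under the median on both arrays.

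*Zfp352*, a zinc finger gene that is transcribed in the 2-cell embryo, differed least. It lay at -1.67 in WT and at -1.12 in G9a-KO, a difference of 0.55 (1.46-fold), and its other probe set gave -2.21 and -1.31, a difference of 0.90 (1.86-fold). Both probe sets of *Zfp352* differed in one direction and lay above the median on both arrays, the second only just in WT (-2.21 against -2.24). The second is also of the _x_at kind that can bind several transcripts.

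Ranked among all 18194 genes by difference, *Tcstv3* was number 71 from the highest, *Tcstv1* number 109, *Tmem132c* number 179 and *Zfp352* number 2008. All genes were also cut by mean level into 20 fixed groups, and counts were made in the group that held each member, the member included. Of the 910 genes of its group, 9 differed at least as far from 0 as *Tcstv3* and 12 as far as *Tcstv1*. For *Tmem132c* and *Zfp352*, which share a group of 910, these counts were 16 and 247. The difference of *Zfp352* was thus common at its level, and few genes differed as far as the other members. These genes were chosen with their differences known, so the ranks and counts describe the choice and are no independent evidence.

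**Figure D1:**
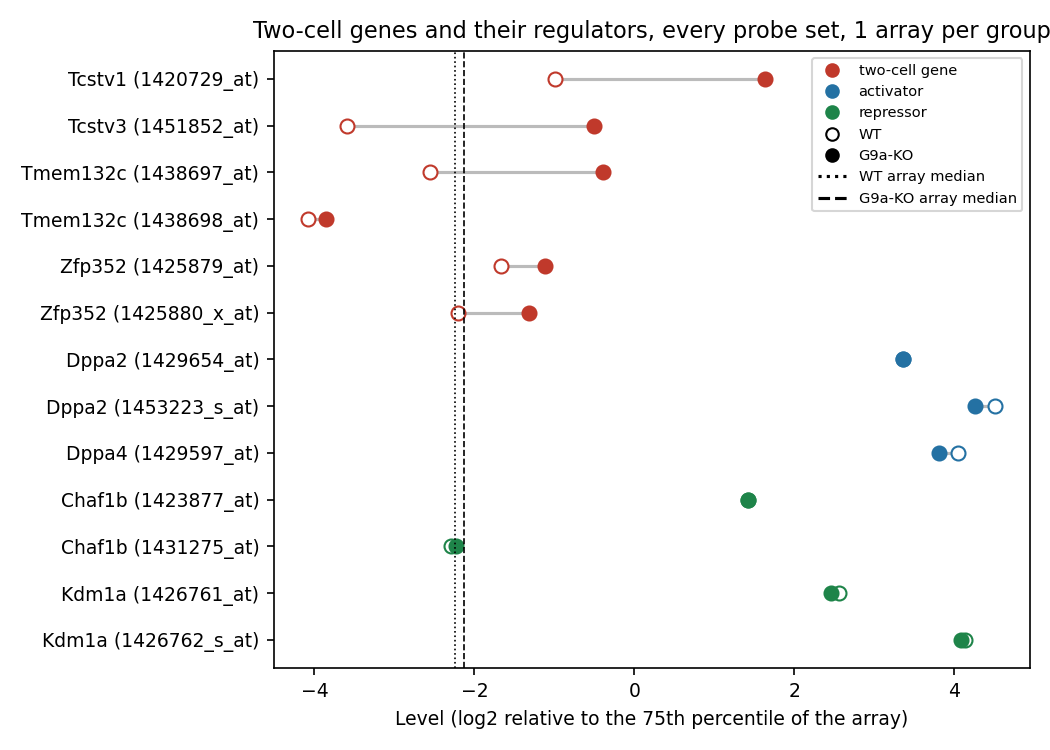
Level (horizontal axis, log2 above or below the array's 75th percentile) of the 13 probe sets of the 8 measured genes, with open circles for the WT array, filled circles for the G9a-KO array, and dotted and dashed lines at the array medians of -2.24 and -2.13. Red 2-cell genes shift to the right, *Tcstv3* from -3.59 to -0.51, but the dim *Tmem132c* probe set only from -4.08 to -3.86. The blue activators and green repressors keep their open and filled circles close together.

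The activators did not pass 1.3-fold in either direction. *Dppa2* lay at 4.51 in WT and at 4.26 in G9a-KO by its brighter probe set, a difference of -0.26 (1.19-fold), and its other probe set gave 3.36 on both arrays, a difference of 0.0035. *Dppa4* lay at 4.04 in WT and at 3.80 in G9a-KO, a difference of -0.24 (1.18-fold). Every one of these probe sets was among the brightest 5% of its array, with percentiles from 95.7 to 98.3. The activator genes are neighbours on chromosome 16 of GRCm38.p6, with 0 annotated genes between them.

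The measured repressors did not pass 1.3-fold either. *Chaf1b* lay at 1.42 in WT and at 1.43 in G9a-KO, a difference of 0.0033, and its other, dim probe set had identical deposited values on both arrays. *Kdm1a* lay at 4.13 in WT and at 4.09 in G9a-KO, a difference of -0.041, and its other probe set gave 2.56 and 2.45, a difference of -0.10. Of the 909 genes of its level group, the gene itself included, 905 differed at least as far from 0 as *Chaf1b*. In the level group of *Kdm1a*, 813 of 909 differed as far. For the activators these numbers were 379 of 909 (*Dppa2*) and 402 of 909 (*Dppa4*). The regulators therefore lay where most or many genes of their level lay, and without replicates a smaller change in them can be neither shown nor set aside.

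**Figure D2:**
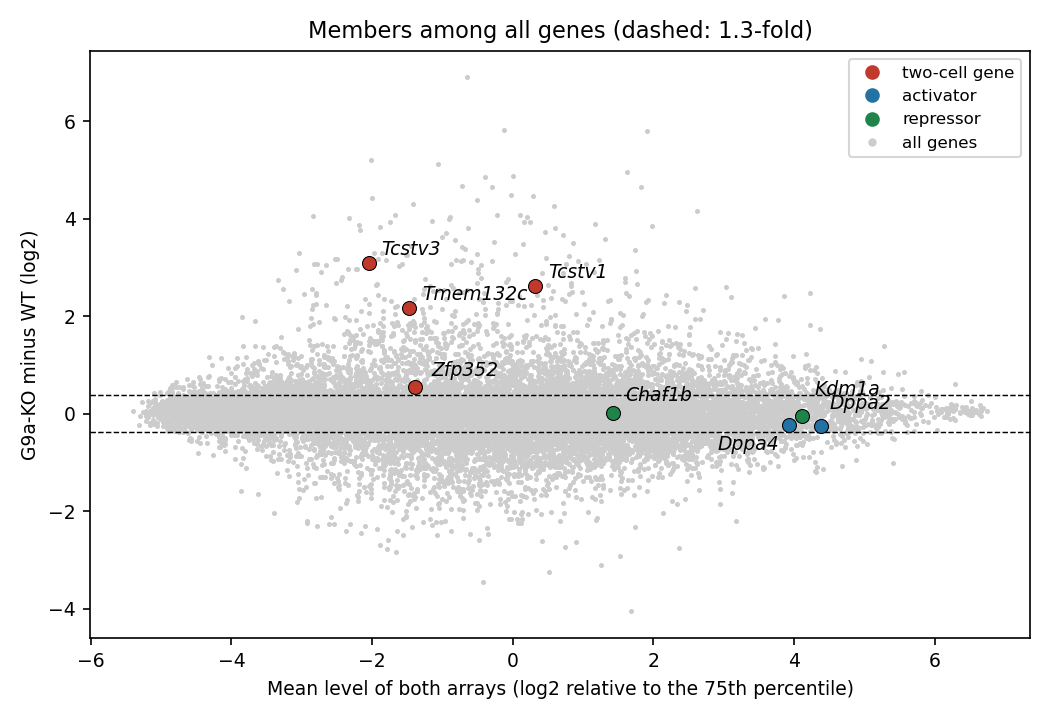
Each of 18194 genes as a grey point by its mean level (horizontal axis, log2 above or below the 75th percentile) and its difference, G9a-KO less WT (vertical axis, log2), with the members coloured by role and dashed lines at 1.3-fold. *Tcstv3* (3.09), *Tcstv1* (2.62) and *Tmem132c* (2.16) lie far above the upper line and *Zfp352* (0.55) just above it, whereas *Dppa2*, *Dppa4*, *Chaf1b* and *Kdm1a* lie between the lines.

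Other genes known from the 2-cell embryo or from MERVL-driven transcription were higher as well. Of 56 listed genes, 22 were measured. Of these, 17 were over 1.3-fold higher (17.4% of all genes were), 1 was lower (17.2% were) and 4 were within the threshold. Over 2-fold higher were 11 (4.61% of all genes were), and the median difference was 1.05 against 0.036 for all genes. The list was drawn up with earlier results of these arrays known, so the count is no independent evidence of its direction. *Pramel6* went from -0.77 to 3.11 (14.7-fold) and *Pramel7* from -0.48 to 3.10 (12.0-fold). By their other probe sets, *Pramel6* was 3.70-fold and *Pramel7* 8.58-fold higher, so the size of the fold depends on the probe set. Both are leucine-rich repeat genes that are expressed in the inner cell mass too. *Usp17la*, a deubiquitinating enzyme gene, went from 1.62 to 3.56 (3.86-fold). *P4ha2*, a collagen prolyl hydroxylase subunit that is also used by matrix-producing cells, went from 0.45 to 2.86 (5.32-fold). *Arg2*, a mitochondrial arginase, was the gene that was lower, from -0.75 to -1.33 (1.50-fold). *Eif1a*, *Gm4981*, *Rfpl4* and *Oog4* stayed within 1.3-fold. Of the 22 genes, 8 lay under the median on both arrays (*Tdpoz1*, *Lmx1a*, *Spz1*, *Gm4981*, *BC147527*, *Rfpl4*, *Oog4* and *Snai1*), and their folds say little. The *Zscan4* genes, which are defining for the state, had no probe set with 1 symbol and were not analysed here.

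Several of these genes lie together with the *Tcstv* members. On chromosome 13 of GRCm38.p6, 26 annotated genes start between *Tcstv1* and *Tcstv3*, of which 8 are protein-coding and 3 were measured. *Gm20767* went from -0.69 in WT to 1.83 in G9a-KO, a difference of 2.52 (5.73-fold). *AF067061* went from 0.96 to 3.39, a difference of 2.43 (5.38-fold). *BC147527* went from -3.91 to -2.19, a difference of 1.73 (3.31-fold), under the median on both arrays. All 3 measured genes of the interval were thus over 1.3-fold higher (17.4% of all genes were), like the members on either side of it. *AF067063*, on the same chromosome, was 2.14-fold higher (-2.69 and -1.59). The copies resemble each other, and the probe sets of *AF067061* and *BC147527* are of the _x_at kind that can bind several transcripts, so these values are not independent of each other.

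**Figure D3:**
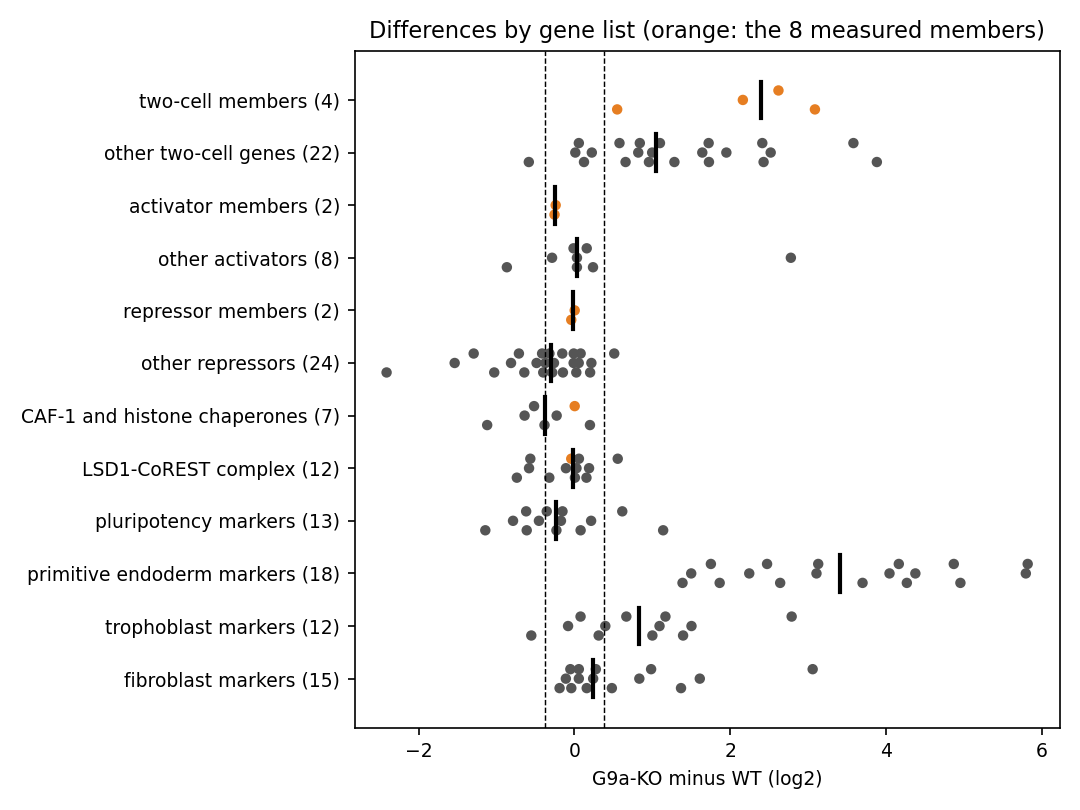
Difference, G9a-KO less WT (horizontal axis, log2), of the measured genes of 12 lists, 1 point per gene, with the number of genes in parentheses, orange for the 8 members, a black bar at the list median and dashed lines at 1.3-fold. The 2-cell lists sit to the right (medians 2.39 and 1.05), the members that regulate them sit between the dashed lines, and the primitive endoderm markers sit farthest to the right (median 3.41).

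Other activators of the 2-cell genes did not move together. Of 8 measured genes, 1 was over 1.3-fold higher (17.4% of all genes were), 1 was lower (17.2% were) and 6 were within the threshold. The median was 0.032. With 8 genes, these counts are near the shares of all genes, and 4 of the 8 were under the median on both arrays. *Obox6*, a homeobox gene of the early embryo, went from -1.83 to 0.94 (6.85-fold higher). *Dppa3*, a maternal factor also known as Stella, went from 2.47 to 1.60 (1.82-fold lower). *Duxf3*, which encodes DUX, lay at -2.62 in WT and -2.59 in G9a-KO, under the median on both arrays, and differed by 0.032. The elongation factor subunit *Nelfa* differed by 0.16 and the transcription factor gene *Gata2* by -0.29. The other Obox genes measured, *Obox2*, *Obox3* and *Obox5*, were under the median on both arrays.

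Of genes that DPPA2 and DPPA4 are known to keep active, 4 of 5 were measured, too few to read a share from. Of these, 0 were over 1.3-fold higher (17.4% of all genes were) and 2 were lower (17.2% were). *Syce1*, a synaptonemal complex gene, went from 0.68 to -0.035 (1.65-fold lower), and *Mael*, a piRNA pathway gene, from -0.068 to -0.67 (1.52-fold lower). The heart homeobox gene *Nkx2-5* differed by 0.075 and *Duxf3* by 0.032.

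Other repressors of the 2-cell genes were lower more often than higher. Of 24 measured genes, 10 were over 1.3-fold lower (17.2% of all genes were), 1 was higher (17.4% were) and 13 were within the threshold. Their median was -0.30. This list, too, was drawn up with earlier results of these arrays known, so the counts are no independent evidence. *Ehmt2*, the targeted gene, is 1 of the 10. *Myc*, a transcription factor gene, went from 0.33 to -2.08 (5.32-fold lower). The RNA-binding protein gene *Lin28a* went from 1.69 to 0.40 (2.45-fold lower). *Mga* and *L3mbtl2*, subunits of PCGF6-PRC1, went from 1.94 to 0.91 (2.04-fold lower) and from 1.59 to 0.78 (1.76-fold lower). Of the chromatin factors in the list, the co-repressor *Trim28* differed by -0.37 (1.29-fold lower) and lay at the threshold, just within it. The H3K9 methyltransferase *Setdb1* differed by -0.49 (1.40-fold lower) and passed it. The listed gene that was higher was *Pias4*, a SUMO ligase gene (0.51), with bright probe sets in both directions.

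Of CAF-1 and histone supply, 7 genes were measured. Of these, 4 were over 1.3-fold lower (17.2% of all genes were) and 0 were higher (17.4% were). The median was -0.38, and this list was also chosen with earlier results known. *Asf1a* and *Asf1b*, which hand histones to CAF-1, went from 4.13 to 3.01 (2.17-fold lower) and from 2.67 to 2.15 (1.43-fold lower). *Nasp*, a histone carrier, went from 4.34 to 3.70 (1.56-fold lower). *Pcna*, the sliding clamp to which CAF-1 binds, went from 5.80 to 5.42 (1.31-fold lower) and lay at the threshold. The CAF-1 subunit *Rbbp4* differed by -0.23, with bright probe sets in both directions, and the acetyltransferase *Hat1* by 0.20.

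For LSD1, 12 genes of the CoREST complex were measured, *Kdm1a* among them, of which 3 were over 1.3-fold lower (17.2% of all genes were), 1 was higher (17.4% of all genes were) and 8 were within the threshold, with a median of -0.017. The share of these genes past the threshold was near that of all genes. *Rcor2*, a scaffold of the complex in ESCs, went from 1.27 to 0.53 (1.67-fold lower). *Hdac1* went from 3.86 to 3.28 (1.50-fold lower), whereas *Hdac2*, the other deacetylase, went from 3.62 to 4.17 (1.47-fold higher, and 1.63-fold by another probe set above the median). *Phf21a*, a histone reader, went from 0.97 to 0.40 (1.48-fold lower). The scaffold *Rcor1* differed by 0.057 and *Zmym2*, a zinc finger partner, by 0.0061.

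The measured relatives of *Tmem132c* and *Zfp352* did not pass 1.3-fold upward. Of the other Tmem132 genes measured, *Tmem132a* was 1.34-fold lower (-0.28 and -0.71), *Tmem132e* differed by 0.18 and *Tmem132d*, under the median on both arrays, by -0.024. Beside *Zfp352*, the pseudogene *Zfp353-ps* was under the median on both arrays and differed by 0.035. *Zfp42*, a zinc finger gene also known as Rex1, went from 4.78 to 3.99 (1.73-fold lower). *Dppa5a*, which shares only its name series with *Dppa2* and *Dppa4*, went from 5.98 to 6.59 (1.53-fold higher).

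Markers of other cell types moved on the same arrays. Each of the 18 primitive endoderm markers passed 2-fold upward (4.61% of all genes did). These markers lay between -3.04 and 2.98 in WT and between -1.29 and 5.46 in G9a-KO. Among them *Cubn*, an endocytic receptor gene, was 56.3-fold higher, and its WT level of -3.04 was under the median. Of 12 trophoblast markers, 8 passed 1.3-fold upward (17.4% of all genes did) and 1 downward (17.2% did). Their levels ran from -3.43 to 2.83 in WT and from -2.92 to 2.99 in G9a-KO. The lineage determinant *Cdx2* was 1 of 2 trophoblast markers under the median on both arrays. The trophoblast markers that differed most were the keratin gene *Krt19* (6.90-fold higher), *Plac1* (2.83-fold), the transcription factor gene *Elf5* (2.63-fold) and the keratin gene *Krt18* (2.25-fold). Of 15 fibroblast markers, 6 were over 1.3-fold higher (17.4% of all genes were) and 0 lower (17.2% were). Their levels ran from -4.61 to 1.71 in WT and from -4.55 to 3.31 in G9a-KO. Of the 15, 9 were under the median on both arrays, the defining collagen genes *Col1a1* and *Col3a1* among them. The fibroblast markers that differed most were the matrix genes *Col5a2* (8.32-fold higher), *Fn1* (3.05-fold), *Col6a3* (2.58-fold) and *Col1a2* (1.78-fold). The part of these cells in the higher values of *Tcstv1*, *Tcstv3*, *Tmem132c* and *Zfp352* was not tested. Of the 13 pluripotency markers, 5 were over 1.3-fold lower (17.2% of all genes were) and 2 higher (17.4% were), with a median of -0.23. The share that was higher was near that of all genes. *Pou5f1*, the core factor gene, went from 4.91 to 4.45 (1.37-fold lower) and *Klf2* from 4.13 to 2.99 (2.21-fold lower).

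The letters of the promoters were counted without the array values, but the promoters are those of members chosen with their differences known. TAATCC, letters that OTX-type homeodomain proteins are known to bind, chosen after the sequence was seen, stands 9 times in the *Zfp352* promoter, in a row of repeats. Of 32851 promoters of the same length, 7.06% hold it, and the highest number outside *Zfp352* is 4. *Tmem132c*, *Chaf1b* and *Kdm1a* have 0 matches. The E2F core TCCCGC stands 4 times in the *Chaf1b* promoter, a number that 0.25% of all promoters reach, and once each in those of *Kdm1a* and *Tmem132c*, and 6562 of 32851 promoters hold it. The *Zfp352* promoter holds none. The E-box CACGTG (7.15% of all promoters) and the T-box core GGTGTGA (3.98%) were found in none of the 4 promoters on either strand. Nor were the DUX motif TGATTNAATCA (0.033%) and the TATA box TATAAA (13.6%). The CCAAT box CCAAT (37.4%) was found in that of *Kdm1a* only. Exact letters were searched, so variant forms of these motifs were not looked for.

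By CG content the promoters fell apart. That of *Zfp352* has 2 CG dinucleotides, fewer than the median of 7 over all promoters. That of *Tmem132c* has 29, as has *Kdm1a*, and *Chaf1b* has 30, and 87.1% and 88.3% of all promoters have fewer. The 2-cell members with a promoter therefore do not share this feature.

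**Figure D4:**
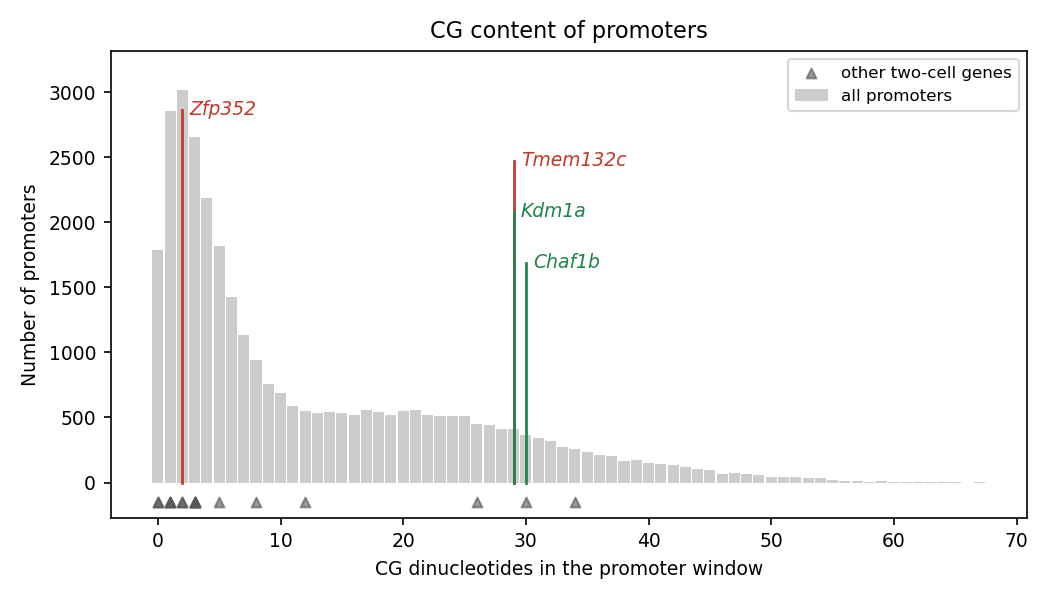
Number of promoters (vertical axis) by the number of CG dinucleotides in the promoter window of 300 bases (horizontal axis), as grey bars for 32851 promoters, with coloured lines at 4 measured members (red 2-cell genes, green repressors, line height without meaning) and grey triangles for the promoters of other measured 2-cell genes. *Zfp352* lies at 2, among the most common values, and *Tmem132c* (29), *Kdm1a* (29) and *Chaf1b* (30) lie in the right tail.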

How the data were processed

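Total RNA (200 ng per sample) was measured on Affymetrix mouse genome arrays, 1 per group. The deposited values are log2 signals from RMA. The submitters' processing notes name R 3.2.1, and the sources used here do not give the RMA package. RMA includes quantile normalization, so a change of all transcripts together would not be seen. Here, with Python 3.11.15, pandas 2.3.3 and numpy 2.4.6, each array was shifted so that its 75th percentile over 45101 probe sets (7.37 in WT, 7.31 in G9a-KO) became 0, which adds 0.056 to each difference. Of the probe sets, 34958 had 1 gene symbol in GEO's platform annotation, 932 had several and 9211 were unnamed here. By gene ID, 34754 of the 34958 matched RefSeq (GRCm38.p6) and 0 symbols changed. The value of a gene is that of its probe set with the highest mean.

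The members and lists were chosen with earlier results of these data known. Named genes are the members, *Ehmt2*, members of the activator, CAF-1 and CoREST lists past 1.3-fold, and up to 4 genes per list with the largest absolute difference above the median of an array whose bright probe sets ran in one direction. Other genes named were chosen after their values were seen. No test was made, since each group has 1 array, and the steps were tested on simulated data. The alternatives were no shift, median centring, quantile normalization, lowess (span 0.3, statsmodels 0.14.6), bright probe sets only, no _s_at or _x_at probe sets, and other rules for several probe sets.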

Additional observations from a re-analysis of the deposited data

How the results depend on the processing

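Under the 8 alternatives, the difference of *Tcstv1* ran from 2.52 to 2.63, that of *Tcstv3* from 2.98 to 3.09, that of *Tmem132c* from 1.19 (mean over its probe sets) to 2.16 and that of *Zfp352* from 0.45 to 0.90, so all 4 stayed over 1.3-fold higher. *Dppa2* (-0.36 to 0.0035), *Dppa4* (-0.34 to -0.24), *Chaf1b* (-0.099 to 0.056) and *Kdm1a* (-0.14 to -0.041) stayed within 1.3-fold, and *Dppa2* and *Chaf1b* changed sign in part of them. Centring on the median lowers every difference by 0.10. It made 2 of the other activators lower. With the probe set of largest absolute difference, 2 other activators, 2 other repressors, 3 CoREST genes and 2 Tmem132 genes were higher, and with the mean over probe sets 0 other repressors were. Of the 256 list counts past 1.3-fold so recomputed, 250 stayed within 1.5 times of the value given, while 12 of 128 list medians and 6 of 72 differences of single genes moved. With bright probe sets, the median of the other 2-cell genes went from 1.05 to 1.68 and that of the DPPA2 and DPPA4 targets from -0.28 to -0.60. No paired analysis was possible because each group has 1 array. Leaving out an array was not possible for the same reason.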

Other observations

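Among 18194 genes, the nearest to each 2-cell member in level on both arrays (Euclidean distance over 2 arrays, on the log2 scale) were *Gpc3* for *Tcstv1* (0.084), *Pudp* for *Tcstv3* (0.19), *Xaf1* for *Tmem132c* (0.17) and *0610009L18Rik* for *Zfp352* (0.029). Their differences were 2.54, 3.30, 2.36 and 0.58.

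Of the 22 measured genes of the wider 2-cell list, 16 had a promoter in the RefSeq table, 17 promoters in all. Their median was 3 CG dinucleotides, with a range from 0 to 34, and 11 of the 17 had 3 or fewer, as had 31.4% of all promoters. *Usp17la* had 1, *Pramel6* 3 and *Pramel7* 1, whereas *P4ha2* had 26, *Slc34a2* 30 and *Snai1* 34. The DUX motif and the E-box were found in 0 of the 17.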
